A study of Homo sapiens with 6 samples.

Results

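Notch receptors, their ligands and their direct target genes were followed in MDA-MB-231 cells, a human triple-negative breast cancer (TNBC) line, after depletion of Sam68. The set held 10 genes, chosen by name under a rule that uses no measured value but with earlier results of these data known: the receptors NOTCH1, NOTCH2, NOTCH3 and NOTCH4, the ligands JAG1, JAG2 and DLL1, and the targets HES1, HEY1 and NRARP. Of the 10 genes, 9 were found among the 74852 loci of the table, and all 9 were among the 18849 loci abundant enough to be tested. The expression of JAG2 was not analysed here. Cells received non-targeting control siRNAs (si-CTRL cells, 3 libraries) in 2 rounds of transfection, or, in the same way, 4 pooled siRNAs that target the transcript of Sam68, encoded by KHDRBS1 (si-SAM68 cells, 3 libraries). The sample labels give a harvest 24 h after the second transfection and a stranded mRNA library kit. The methods of the study give a longer time, counted from transfection without a second round named. They also name a different medium and extraction kit. Both groups come from a single cell line, and the labels do not say whether the libraries are separate cultures, so that p-values measure the spread between these libraries.

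Notch receptors are cell surface proteins that are activated by ligands on neighboring cells. The receptor precursor is cut by furin on its way to the membrane, and a bound ligand exposes the receptor to ADAM metalloproteases and then to the γ-secretase complex. The intracellular domain set free in this way enters the nucleus, where it binds the DNA-binding protein RBPJ and coactivators of the Mastermind family and turns on genes such as HES1, HEY1 and NRARP. In breast cancer the pathway is known for its link to cell growth and stem cell-like states. Sam68 is an RNA-binding protein known for the regulation of splicing.

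The siRNAs of the SAM68 pool are shown because they are the perturbation behind each comparison. All but the last matched each of the 4 KHDRBS1 transcripts of GENCODE, and the last matched 3 of them. The sense strand is given, and capitals mark the bases that pair with the seed of the guide strand (guide positions 2 to 8).

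siSAM68_1: gcacccauaugGACGUUAu
siSAM68_2: gaaagagcgagUGCUGAUa
siSAM68_3: uaugauggaugAUAUCUGu
siSAM68_4: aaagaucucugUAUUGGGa

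A match to 1 or more of these seeds lay in the longest 3'UTR of 26.2% of 19128 genes and of 2 of the 10 listed genes, DLL1 and NOTCH4. Both sites are on the minus strand of GRCh38, at chr6:170282407-170282433 for DLL1 (siSAM68_3) and chr6:32195026-32195052 for NOTCH4 (siSAM68_4), and capitals mark the match.

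DLL1 site: atttttcatgATATCTGtaaagcttga
NOTCH4 site: gacaaatattTATTGGGcacctactat

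Seeds of the control pool had a match in 50% of the genes and in 5 of the listed ones, NOTCH1, NOTCH2, JAG1, HEY1 and NRARP. The part of seed matches in the changes given here was not tested.

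The promoters of HES1 and NRARP are shown because both genes are known as Notch targets. They are the 250 bases before the RefSeq start site (GRCh38.p14), at chr3:194135898-194136147 on the plus strand for HES1 and chr9:137302272-137302521 on the minus strand for NRARP. Capitals mark TGGGAA, the core of the sequence bound by RBPJ, searched on both strands.

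HES1 promoter: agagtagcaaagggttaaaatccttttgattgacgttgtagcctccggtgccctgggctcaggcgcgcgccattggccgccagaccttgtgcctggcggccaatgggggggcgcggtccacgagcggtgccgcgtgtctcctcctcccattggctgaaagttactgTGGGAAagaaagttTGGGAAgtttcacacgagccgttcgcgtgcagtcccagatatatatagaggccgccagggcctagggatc
NRARP promoter: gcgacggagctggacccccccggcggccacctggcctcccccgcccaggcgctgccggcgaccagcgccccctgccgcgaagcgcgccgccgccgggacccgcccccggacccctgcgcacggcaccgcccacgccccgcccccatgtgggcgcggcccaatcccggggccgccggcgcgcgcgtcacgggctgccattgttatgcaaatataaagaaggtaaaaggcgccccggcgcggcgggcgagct

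Over the window from 250 bases before to 50 bases after the start site, 8 of the 10 genes were in the promoter set used here. DLL1 and HEY1 were not in it. TGGGAA occurred 2 times in HES1, at positions -84 and -70 on the same strand, and 0 times in NRARP, JAG1, JAG2 and each of the 4 receptors. In all 35116 promoters it occurred in 24%. The longer form GTGGGAA, which contains TGGGAA, occurred 1 time in HES1 and in 6.25% of all promoters. The letters CACNAG, the N box bound by HES proteins, occurred 4 times in HES1, 1 time in NRARP and in 38% of all promoters.

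The libraries held between 52625492 and 82568487 reads on annotated loci. KHDRBS1 had 14960 ± 620 normalized reads in si-CTRL cells and 618 ± 45.8 in si-SAM68 cells (mean ± SD, n = 3), a log2 fold change of -4.60, so that the libraries went with their labels. An rRNA locus took 15.1% of the reads of si-SAM68 replicate 2 and at most 3.17% of the others, and the NOTCH2 result is also given without it. Of 8 genes known to be expressed in MDA-MB-231 cells all were detected, and ESR1, PGR, CDH1 and EPCAM, which mark hormone receptor-positive or epithelial tumors, stayed at 15.2 or less in each library.

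In si-SAM68 cells NOTCH2 transcripts rose, and NOTCH2 was the only member of the 9 that passed the adjusted threshold in the comparison of si-SAM68 vs. si-CTRL cells. Of the 9 members, 7 had a negative log2 fold change, with a median over the members of -0.28 against 0.01 over all loci. None of the 9 met the thresholds of the study (fold change of 1.5 or more with an unadjusted p up to 0.05), which 4.83% of all tested loci met as lower and 2.83% as higher. At an adjusted p under 0.05, 1 member was higher and 0 were lower, against 4.47% and 6.23% of all loci. At an unadjusted p under 0.05, NOTCH1, NOTCH4, JAG1 and DLL1 were lower and NOTCH2 was higher, against a background of 14.1% lower and 12.8% higher. The groups did not overlap for 5 members that were lower (these 4 and HES1) and for 1 that was higher, against 17.3% and 16.6% of all loci. The plot of the members by library shows the values behind these counts.

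**Figure D1:**
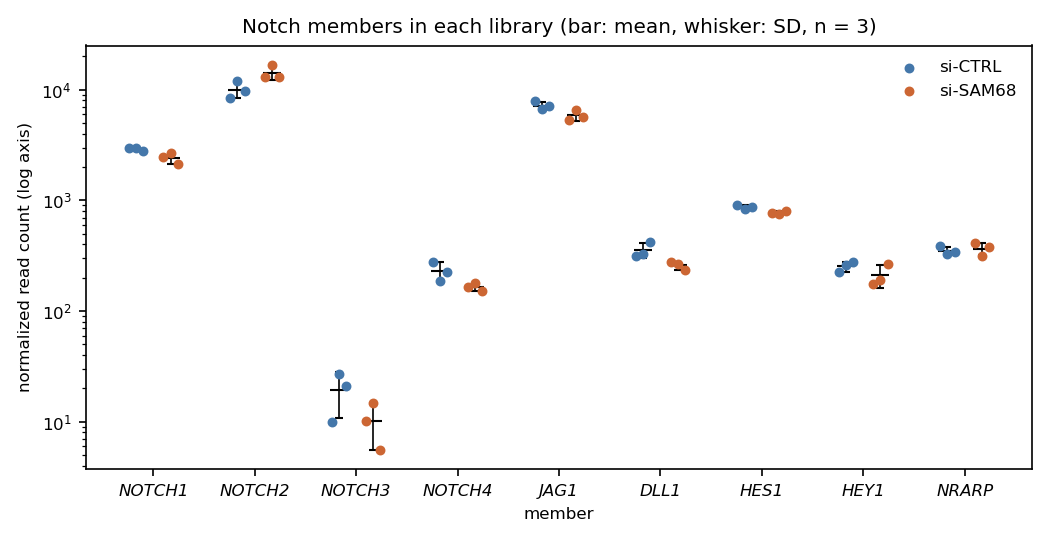
Normalized read counts (log axis) of the 9 members in each of the 3 si-CTRL and 3 si-SAM68 libraries, with the mean (bar) and SD (whisker). NOTCH2 sits higher in all 3 si-SAM68 libraries, whereas NOTCH1, NOTCH4, JAG1, DLL1 and HES1 sit lower in all 3.

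NOTCH2 was the most abundant receptor in these cells. Its locus (hg19, chr1:120454176-120612317) had 8504, 11884 and 9758.5 normalized reads in si-CTRL cells (in the order of replicates 1, 2 and 3, used from here on) and 13117, 16821 and 12990.0 in si-SAM68 cells. All 3 si-SAM68 libraries were above all 3 si-CTRL libraries, and replicate 2 was the highest of each group. The log2 fold change was 0.51 ± 0.135 (SE), a 1.43-fold increase with a 95% interval of the log2 value from 0.21 to 0.81 (limma, adjusted p = 0.0396). Without si-SAM68 replicate 2, the library with more rRNA, the log2 fold change was 0.39 (adjusted p = 0.138). The adjusted p was also above the threshold when si-CTRL replicate 3 (0.0919), si-SAM68 replicate 1 (0.0820) or si-SAM68 replicate 3 (0.0960) was left out. Without si-CTRL replicate 2 the log2 fold change was 0.64, which met the thresholds of the study. Loci of the NOTCH2NL genes are near-identical copies of the first exons of NOTCH2, so that reads can be shared between them. The locus that holds NOTCH2NL together with NBPF genes had 1971 ± 538 normalized reads in si-CTRL cells vs. 2061 ± 159 in si-SAM68 cells, with groups that overlapped and a log2 fold change of 0.10 (adjusted p = 0.756).

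NOTCH1, a receptor known for its role in T cell development and in leukemia, had lower values in si-SAM68 cells. Its locus (chr9:139388886-139440238) had 2959.6, 2960.8 and 2820.6 normalized reads in si-CTRL cells and 2465, 2675 and 2134 in si-SAM68 cells. The si-CTRL libraries were close to each other and all above the si-SAM68 libraries, of which replicate 3 was the lowest. The log2 fold change of -0.27 ± 0.0945 did not pass after adjustment (limma, adjusted p = 0.0981). Without si-SAM68 replicate 3 it was -0.18, with an unadjusted p above 0.05.

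NOTCH4, a receptor first known from endothelial cells and mouse mammary tumors, was expressed at a low level. Its locus (chr6:32162621-32191844) had 276, 187 and 226 normalized reads in si-CTRL cells and 165, 178 and 153 in si-SAM68 cells. The groups were apart by a narrow margin, with si-CTRL replicate 2 nearest to the si-SAM68 libraries. The log2 fold change was -0.46 ± 0.163 (limma, adjusted p = 0.105), and without si-CTRL replicate 2 it was -0.59, which met the thresholds of the study. Without si-CTRL replicate 1 it was -0.31, and there as well as without si-SAM68 replicate 3 the unadjusted p was no longer under 0.05.

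NOTCH3, a receptor known from vascular smooth muscle, was close to the limit of detection. The locus (chr19:15270445-15311794), which also holds MIR6795, had 10.0, 27.1 and 20.9 normalized reads in si-CTRL cells and 10.1, 14.7 and 5.59 in si-SAM68 cells. The groups overlapped, and si-CTRL replicate 1 was as low as the si-SAM68 libraries. With 5 to 28 recovered reads per library, the log2 fold change of -0.85 ± 0.482 had a 95% interval from -1.93 to 0.22 (limma, adjusted p = 0.288). With 1 library left out it ran from -0.52 (without si-SAM68 replicate 3) to -1.25 (without si-CTRL replicate 1), and it met the thresholds of the study in the latter case alone. Without si-CTRL replicate 2 it was -0.57.

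A comparison of levels between receptors needs a correction for transcript length, and levels were divided by the length in kb of the longest coding transcript of GENCODE. On this scale NOTCH2 made up 67.5%, 74.9% and 71.7% of the summed receptor level in si-CTRL cells and 79.9%, 82.4% and 81.9% in si-SAM68 cells. NOTCH1 made up 28.7%, 22.9% and 25.3% in si-CTRL cells and 18.4%, 16.0% and 16.5% in si-SAM68 cells. The level per kb of NOTCH2 over that of NOTCH1 was 2.35, 3.28 and 2.83 in si-CTRL cells and 4.35, 5.14 and 4.98 in si-SAM68 cells. NOTCH4 made up 3.70%, 1.99% and 2.81% in si-CTRL cells and 1.70%, 1.48% and 1.63% in si-SAM68 cells, and NOTCH3 at most 0.225% in any library. The share of NOTCH2 was higher, and those of the other receptors lower, in each si-SAM68 library than in any si-CTRL library. The shares of a library have a fixed total, so a higher NOTCH2 level alone lowers the shares of the others. The normalized reads of NOTCH3 overlapped between the groups. The smallest p that an exact permutation test of 3 against 3 libraries can reach is 0.1, so these shares are given without a test.

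**Figure D2:**
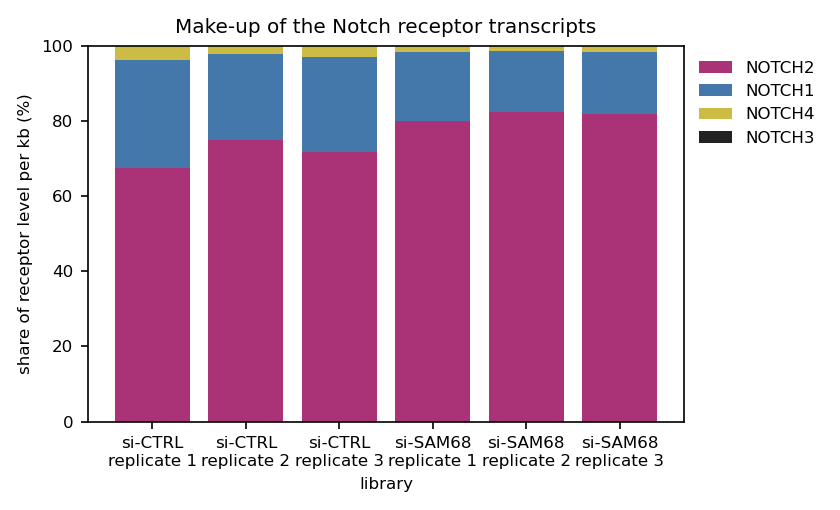
Share (%) of each of the 4 receptors in their summed level per kb of transcript, 1 stacked bar per library. NOTCH2 takes 67.5% to 74.9% in the si-CTRL libraries and 79.9% to 82.4% in the si-SAM68 libraries.

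JAG1 was the most abundant of the ligands measured. Its locus (chr20:10618332-10654694), which also holds MIR6870, had 7837, 6654 and 7069 normalized reads in si-CTRL cells and 5378, 6548 and 5700.4 in si-SAM68 cells. The groups did not overlap, although si-SAM68 replicate 2 came within reach of si-CTRL replicate 2. JAG1 had a log2 fold change of -0.29 ± 0.0959 (limma, adjusted p = 0.0818). It was -0.23 without si-SAM68 replicate 1, with an unadjusted p above 0.05.

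DLL1, a ligand of the Delta family, had the smallest p among the members that were lower. Its locus (chr6:170591296-170599781) had 315, 330 and 418 normalized reads in si-CTRL cells and 276, 264 and 235 in si-SAM68 cells. All 3 si-SAM68 libraries were below the si-CTRL libraries, of which replicate 3 was the highest. For DLL1 the log2 fold change was -0.45 ± 0.140 (limma, adjusted p = 0.0698). The adjusted p was 0.0280 without si-CTRL replicate 1 and 0.0886 to 0.236 with any other library left out.

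None of the 3 target genes passed the adjusted threshold. HES1, a repressor and the classical target of the receptors, had 910, 843 and 872 normalized reads (chr3:193853931-193856400) in si-CTRL cells and 762, 754 and 799 in si-SAM68 cells. The groups did not overlap and the libraries within each group were close, with a log2 fold change of -0.18 ± 0.0880 and a 95% interval from -0.38 to 0.02 (limma, adjusted p = 0.221). HEY1, a related repressor, had 225, 259 and 276 normalized reads in si-CTRL cells and 174, 191 and 267 in si-SAM68 cells, and si-SAM68 replicate 3 lay within the si-CTRL range. Its log2 fold change was -0.28 ± 0.173 (limma, adjusted p = 0.326), and leaving out si-SAM68 replicate 1 or 3 brought it to -0.16 or -0.46, respectively.

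NRARP, which binds the receptor complex and limits its activity, had 385, 327 and 342 normalized reads (chr9:140194083-140196703) in si-CTRL cells and 409, 315 and 378 in si-SAM68 cells. The groups overlapped over most of their range. The log2 fold change was 0.06 with a 95% interval from -0.24 to 0.35 (limma, adjusted p = 0.820), and it turned to -0.02 without si-SAM68 replicate 1. The plot of the members' changes shows the intervals side by side.

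**Figure D3:**
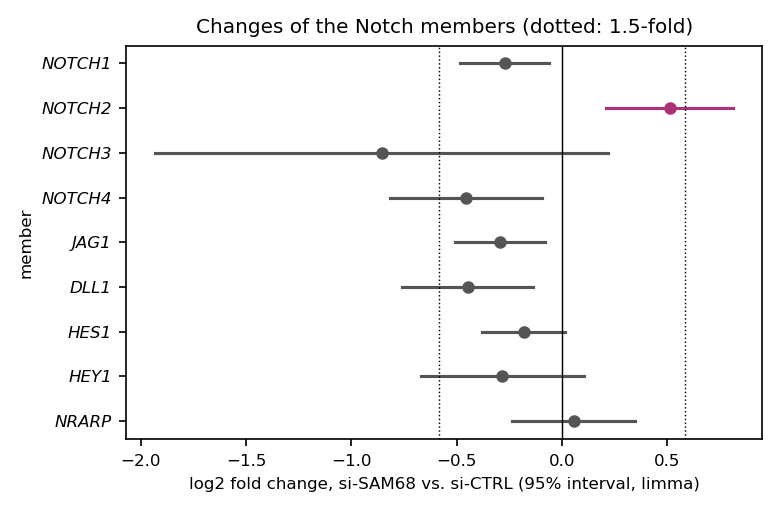
Log2 fold change of each member in si-SAM68 vs. si-CTRL cells with its 95% interval from limma, where dotted lines mark a fold change of 1.5 in either direction and purple marks an adjusted p under 0.05. The interval of NOTCH2 lies above 0, those of NOTCH1, NOTCH4, JAG1 and DLL1 lie below 0, and those of NOTCH3, HES1, HEY1 and NRARP include 0.

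Base composition differed between the members, with a GC content of the longest coding transcript from 47.3% (HEY1) to 67.3% (NRARP). When a trend with GC content and length was removed from each library, an alternative chosen after seeing the data, NOTCH2 had a log2 fold change of 0.57 (adjusted p = 0.0191). NOTCH1 (GC content 62.9%) came to -0.13 (unadjusted p = 0.0933) and NOTCH4 (61.7%) to -0.31 (unadjusted p = 0.0615), both no longer under an unadjusted p of 0.05. JAG1 (49.6%) was at -0.23, DLL1 (58.3%) at -0.32 and NRARP at 0.19.

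Ordered by level per kb of transcript in si-CTRL cells, JAG1 came first with a mean of 1210.0 normalized reads per kb, followed by NOTCH2 (882), HES1 (554), NOTCH1 (313), NRARP (199), DLL1 (112), HEY1 (110.2), NOTCH4 (34.1) and NOTCH3 (2.23). Neighbors in this order did not overlap in their ranges over the libraries, except DLL1 (99.2 to 132) and HEY1 (98.0 to 120.1). In si-SAM68 cells NOTCH2 (1141 to 1477) was above JAG1 (905 to 1102), whereas in si-CTRL cells NOTCH2 (747 to 1043) was below JAG1 (1120.0 to 1319). NOTCH1 (229 to 287) and NRARP (178 to 231) overlapped in si-SAM68 cells, as did HEY1 (75.9 to 116) and DLL1 (73.9 to 87.0).

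The genes whose values were most like those of the 2 members with the smallest p were named by the root mean square distance of centered log2 values over the 6 libraries, among 12112 loci. For NOTCH2 they were LYST (distance 0.0436), APOL6 (0.0799) and TANC2 (0.0846), with log2 fold changes of 0.54, 0.42 and 0.48. For DLL1 they were SCARF2 (0.0342), MAN1A1 (0.0553) and WNT10B (0.0589), with log2 fold changes of -0.46, -0.47 and -0.42. These distances include the difference between the groups.

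A list of 61 further genes of the pathway, of which 56 were abundant enough to be tested, gave changes in both directions. Of the 56, 9 passed the adjusted threshold, 5 higher (ADAM10, ADAM17, NCSTN, ITCH and MAML1) and 4 lower (FURIN, KAT2B, DTX3 and CTBP1), against 4.47% higher and 6.23% lower of all loci. The thresholds of the study were met by 3, FURIN, KAT2B and DLL4, all lower, against 4.83% of all loci, a share near that of the list. The median log2 fold change of the list was -0.0043. At an unadjusted p under 0.05, 13 were higher and 13 lower, against 12.8% and 14.1% of all loci.

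Proteases that process the receptor had higher values in si-SAM68 cells with a single exception. Of 9 tested proteases, 8 had a positive log2 fold change and 3 of these passed the adjusted threshold, which 4.47% of all loci passed as higher. ADAM17, a metalloprotease that sheds surface proteins, had 1784, 1551 and 1513 normalized reads in si-CTRL cells and 2275, 2384 and 2398 in si-SAM68 cells. The groups were far apart, and the log2 fold change was 0.55 ± 0.0886 (limma, adjusted p = 0.00574). ADAM10, the metalloprotease that cuts ligand-bound receptors, had 6153, 6347 and 6446 normalized reads in si-CTRL cells and 7878, 8238 and 7804 in si-SAM68 cells, with a log2 fold change of 0.34 ± 0.0691 (adjusted p = 0.0156). NCSTN, the subunit of γ-secretase that takes up the substrate, had 9678, 8714 and 9174 normalized reads in si-CTRL cells and 11401, 11304 and 10640.0 in si-SAM68 cells. Its log2 fold change was 0.28 ± 0.0738 (adjusted p = 0.0423, and 0.0599 with the replicate number as a block).

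FURIN, the protease that cuts the receptor precursor in the Golgi, was the exception. It had 6257, 4953 and 5276 normalized reads in si-CTRL cells and 3094, 3106 and 2859 in si-SAM68 cells. All si-SAM68 libraries lay far below the si-CTRL libraries, with a log2 fold change of -0.86 ± 0.0969, a 1.81-fold decrease (limma, adjusted p = 0.00101). Furin and both ADAM proteases also act on many proteins outside the Notch pathway.

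Among the nuclear factors, the coactivators that passed changed in both directions, and the co-repressor that passed was lower. KAT2B, an acetyltransferase recruited to the activator complex, had 1154, 986 and 1101 normalized reads in si-CTRL cells and 621, 623 and 706 in si-SAM68 cells, with a log2 fold change of -0.73 ± 0.102 (limma, adjusted p = 0.00269). The locus of MAML1, a Mastermind coactivator, also holds LTC4S and had 6979, 6105 and 6399.8 normalized reads in si-CTRL cells and 8458, 8545 and 8608 in si-SAM68 cells. Its log2 fold change was 0.40 ± 0.0753 (adjusted p = 0.0113), and 0.33 (adjusted p = 0.174) with the GC and length trend removed. This removal used the GC content and length of LTC4S, the first gene named at the locus, and not those of MAML1. RBPJ itself, named here after its values were seen, had a log2 fold change of -0.17 (adjusted p = 0.313).

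Of 13 tested co-repressors, 1 passed the adjusted threshold as lower, a share near the 6.23% of all loci. CTBP1, a co-repressor that joins RBPJ complexes, had 1939.7, 1693 and 1874 normalized reads in si-CTRL cells and 1562, 1364 and 1393 in si-SAM68 cells. The groups did not overlap, with a log2 fold change of -0.35 ± 0.0925 (limma, adjusted p = 0.0401). With the GC and length trend removed the log2 fold change was -0.21 (adjusted p = 0.0782).

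Of 13 tested genes of ubiquitination and trafficking, 1 passed as higher and 1 as lower, against 4.47% and 6.23% of all loci. ITCH, a ubiquitin ligase that acts on the receptor, was at 9286 ± 283 normalized reads in si-CTRL cells vs. 11603 ± 590 in si-SAM68 cells, with a log2 fold change of 0.32 (adjusted p = 0.0226). DTX3, of the Deltex family, was at 1712 ± 135 and 1287 ± 130, with a log2 fold change of -0.41 (adjusted p = 0.0317). None of 5 tested glycosyltransferases and none of 4 tested further HES and HEY genes passed either threshold. The plot of the pathway by role shows all tested genes.

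**Figure D4:**
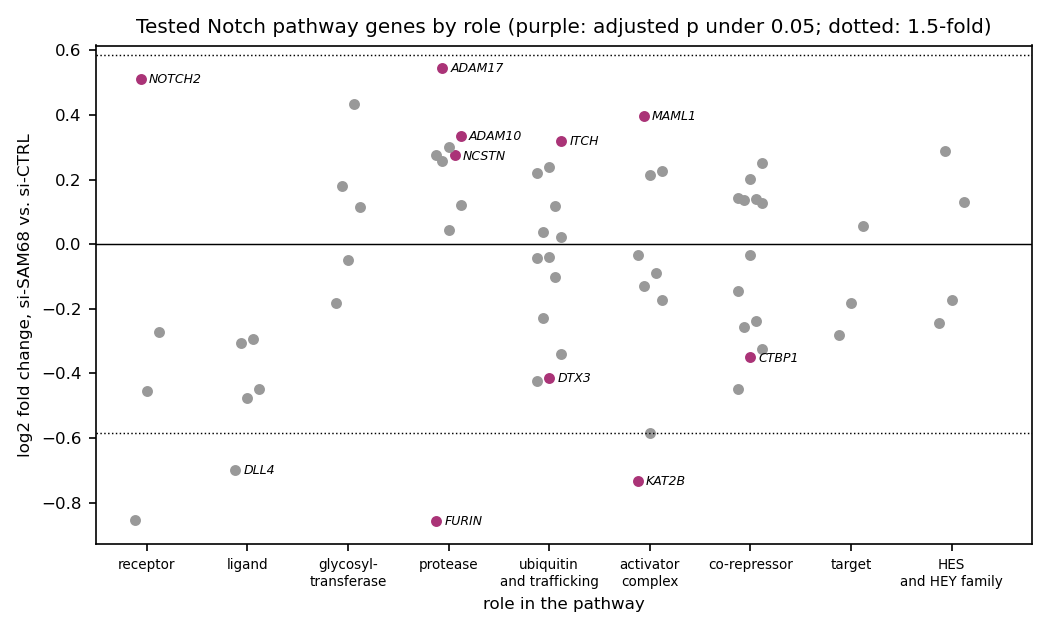
Log2 fold change of the 9 members and 56 further pathway genes in si-SAM68 vs. si-CTRL cells, 1 point per gene, grouped by role, with purple for an adjusted p under 0.05 and dotted lines at a fold change of 1.5. Among the proteases 8 points lie above 0 and FURIN lies lowest at -0.86.

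DLL4, a ligand known from sprouting vessels, had 48.7, 39.7 and 52.3 normalized reads in si-CTRL cells and 23.2, 25.8 and 38.0 in si-SAM68 cells. The groups did not overlap, and the log2 fold change of -0.70 met the thresholds of the study but did not pass after adjustment (limma, adjusted p = 0.125). It no longer met those thresholds with DESeq2 or with the GC and length trend removed (-0.56). All 3 tested ligands of the wider list had negative values. Of 4 tested endothelial markers, 2 met the thresholds of the study as lower, against 4.83% of all loci. After adjustment 1 passed as lower, TIE1, against 6.23% of all loci. The summed level of 6 such markers was 484 to 562 normalized reads in si-CTRL cells vs. 169 to 185 in si-SAM68 cells, most of it from TIE1 (452 ± 54.3 and 143 ± 9.19, log2 fold change -1.65, adjusted p = 0.000186). CDH5 also met the thresholds of the study (means of 30.5 and 13.4 normalized reads, adjusted p = 0.0756), whereas PECAM1 and VWF did not, and KDR and TEK were at 0 in each library. The part of these genes in the Notch results was not tested. All libraries are bulk RNA of a single cell line, so these levels give no count of endothelial cells.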

How the data were processed

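The authors deposited a signal for each locus of FAST DB (hg19) in each library, namely the read count divided by the DESeq2 size factor. The submitters' processing notes name STAR 2.4.0. The counting program, and whether it used strand, are not given in the sources used here, so overlapping loci can share reads. Each library's values were whole multiples (within 0.1, for 100% of them) of a single step, and the multiples were taken as reads. These were 52625492 to 82568487 per library.

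Groups and replicate numbers came from the sample titles. Loci whose mean over the 6 libraries reached 10 were tested, with limma 3.58.1 in R 4.3.3 (lmFit, eBayes with trend) on log2(normalized read count + 1), a scale that understates the change of low genes. Tests were two-sided, and p-values were adjusted by Benjamini-Hochberg across the 18849 tested loci. The rule for the members uses no measured value, but members and lists were chosen with earlier results of these data known. Named genes were all members, KHDRBS1, listed pathway genes past either threshold, and the 3 loci (mean of at least 50) nearest to each of the 2 members with the smallest p. A gene of the pathway list is not reported here and enters none of its counts. The fallback for pathway genes was not needed. Marker lists covered the cell line, genes low in it, and endothelial, fibroblast and immune cells, of which none of the fibroblast or immune genes met the thresholds.

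Deviations from the group means correlated at 0.105, 0.231 and 0.125 between libraries of the same number and at -0.125 to 0.007 otherwise. Libraries of the same number were thus more alike, but the correlations were low. Centering within each group also makes positive values for the same numbers go with negative values otherwise. Whether the numbers pair libraries is therefore not settled by this check. The reported fits have no block, and a fit with the replicate block was an alternative. Other alternatives were pseudocounts of 0.1 and 5, no filter, a minimum mean of 50, TMM and quantile scaling, eBayes without trend, each library left out, and edgeR 4.0.16 and DESeq2 1.42.0 on the recovered reads. Alternatives added after seeing the data were edgeR with the block and removal of a GC and length trend with and without the block. For a locus with more than a single gene, this removal used the first coding gene named there. The programs were tested on simulated data whose planted changes were larger than most of those given here. These planted changes had been raised after a program fell short of the set mark with smaller ones. The recovery of small changes is therefore not shown by this test. Sequences came from RefSeq (GRCh38.p14), GENCODE (GRCh38) and the study's siRNA list.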

Additional observations from a re-analysis of the deposited data

How the results depend on the processing

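The rise of NOTCH2 kept its direction under each alternative (log2 fold change 0.39 to 0.64), but its side of the adjusted threshold depended on settings. Members with an adjusted p under 0.05 numbered 0 without a filter, 0 with quantile normalization, 0 with eBayes without trend and 3 with DESeq2 (NOTCH2, JAG1 at 0.0444 and DLL1 at 0.0336), against 1 in the fit as reported. For the wider list the count of 9 became 3 with eBayes without trend, 16 with DESeq2 and 16 with the GC and length trend removed. Over all loci, 1445 met the thresholds of the study, and 2240 did without a filter. The study itself reports fewer regulated genes at these thresholds, from its own analysis, so the shares of all loci given here are not the study's. The count of loci with an adjusted p under 0.05 was 2017, and 899 with eBayes without trend. The cause of these shifts was not tested.

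With each library left out in turn, members that met the thresholds of the study numbered 0 to 2, members past the adjusted threshold 0 to 2, wider genes that met the thresholds of the study 2 to 5, wider genes past the adjusted threshold 3 to 16, and all loci past it 627 to 2834. The log2 fold change of NRARP ran from -0.025, a reversal without si-SAM68 replicate 1, to 0.16. FURIN, ADAM17 and KAT2B passed the adjusted threshold under each alternative run. The other named wider genes with an adjusted p under 0.05 passed in 1 (NCSTN) to 4 (MAML1) of the 6 fits with a library left out, and DLL4 met the thresholds of the study in 2 of them.

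With the replicate block NOTCH2 had an adjusted p of 0.0115, and 8 of the wider genes named with an adjusted p under 0.05 passed. Among KHDRBS1, the members and the named wider genes, the block changed no other call than that of NCSTN. The number of libraries, 3 per group, limits what could be detected, and NOTCH3 also its depth.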
